A study of Mus musculus with 4 samples.

Results

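The phagocyte NADPH oxidase is the enzyme with which phagocytes pass electrons from NADPH to oxygen and so make superoxide. It was examined through 7 genes: Cybb and Cyba, which encode the membrane core, Ncf1 and Ncf4, which encode cytosolic organisers, Rac1 and Rac2, which encode the small GTPases that switch it on, and Hvcn1, which encodes a proton channel. The genes were chosen by symbol, and all 7 of the 7 were found among the 27998 features of each library.

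At rest the core sits in the membrane and the organisers stay in the cytosol. After a stimulus the organisers are phosphorylated, move to the membrane together with a loaded Rac protein, and electron flow through the core begins. Neutrophils are known for the strongest burst of superoxide, while macrophages, monocytes and dendritic cells use the same enzyme against microbes and in the phagosome.

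Transcripts were counted in single cells of MT4788 mammary tumours, which were grown orthotopically in syngeneic wild-type FVB mice and collected on day 4. Mice of the phenformin group had received saline and phenformin, those of the poly I:C group poly I:C and PBS, those of the combination group both agents, and those of the control group saline and PBS, with 1 library per group and no replicate. Poly I:C, an artificial double-stranded RNA, is sensed as a viral product, and phenformin, a biguanide, blocks mitochondrial complex I. Cells had been enriched with CD45 beads, and per the labels 10000 cells of each condition entered the 3' droplet assay, which tags each captured transcript with a unique molecular identifier (UMI).

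The phenformin, poly I:C, combination and control libraries held 5453, 6619, 8268 and 6095 cells after filtering, and the median cell held 8312, 8430, 5901.5 and 6543 UMIs. Cells were sorted into 6 classes by UMIs of a few defining genes: neutrophil (S100a8 and S100a9 with Csf3r or Cxcr2), macrophage (Csf1r, Cd68 and Adgre1), monocyte (Ly6c2), dendritic (Flt3), B (Cd79a and Cd79b) and T (Cd3d, Cd3e and Cd3g). Between 3846 and 5657 cells of a library fell into a single lineage. Another 5.92 to 8.99% were set aside, and the rest passed no gate. Those set aside passed gates of more than 1 lineage, or the monocyte gate alone without a UMI of Csf1r, Cd68 or Adgre1. A level is given as CPM, the UMIs of a gene per 1000000 UMIs of all cells of that class in that library, and all 95% intervals cover counting error only. In each library 34 to 49 cells carried a barcode that also occurred in another library.

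The classes were checked with marker genes that the gates did not use. Neutrophil markers (Retnlg, Mmp9, Hdc and 5 others) summed to 11806 to 17823 CPM in the neutrophil class and to 263 to 392 CPM in the macrophage class, while B markers summed to at most 8.44 CPM in the neutrophil class. The neutrophil class was not clear of monocyte markers, at 2153, 1580, 2507 and 1780 CPM in the phenformin, poly I:C, combination and control libraries. In the dendritic class monocyte markers stood at 1764, 1914, 2831 and 1875 CPM. T markers summed to 2198 to 2361 CPM in the T class, and B markers to 2440 to 5233 CPM in the B class. Macrophage markers summed to 10535 to 30199 CPM in the macrophage class, and dendritic markers to 3783 to 5462 CPM in the dendritic class. The monocyte class, whose gate allows macrophage genes, was not clear of macrophage transcripts: macrophage markers stood at 6682, 12497, 11016 and 4975 CPM there in the phenformin, poly I:C, combination and control libraries, and monocyte markers at 4756, 3442, 4931 and 5867 CPM. Macrophage markers thus exceeded monocyte markers in 3 of 4 libraries, and the class is called monocyte by its Ly6c2 gate. The neutrophil class was small and shallow, with 137, 115, 177 and 160 cells in the phenformin, poly I:C, combination and control libraries and 347542 to 368515 UMIs per library. It also held a few deep droplets with keratin transcripts. Epithelial markers (Krt8, Krt18, Krt14, Krt5 and Epcam) summed to 1595, 1755 and 38.1 CPM in neutrophils of the phenformin, poly I:C and combination libraries, against 993 CPM in control neutrophils. Treatment ratios in neutrophils are therefore also given without cells that held at least 3 UMIs of these 5 genes, a step chosen after the data were seen. It left 136, 111, 177 and 158 neutrophils in the phenformin, poly I:C, combination and control libraries. Their totals were 309761, 228670, 367336 and 296937 UMIs, against 355396, 347542, 367336 and 368515 UMIs in the whole class. Neutrophil levels in CPM are those of the whole class. The B class held 72, 35, 160 and 56 cells, with epithelial markers at 575 to 1129 CPM.

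All 7 genes lie on annotated loci of GRCm38 in GENCODE vM21. Cybb (ENSMUSG00000015340) spans chromosome X from 9435252 to 9487771 on the minus strand, and Cyba (ENSMUSG00000006519) spans chromosome 8 from 122424776 to 122432930, also minus. Ncf1 (ENSMUSG00000015950) lies on chromosome 5 from 134220053 to 134229625 on the minus strand, and Ncf4 (ENSMUSG00000071715) on chromosome 15 from 78244801 to 78262580 on the plus strand. Rac1 (ENSMUSG00000001847) occupies chromosome 5 from 143503634 to 143528036 on the minus strand, and Rac2 (ENSMUSG00000033220) chromosome 15 from 78559167 to 78572783, also minus. Hvcn1 (ENSMUSG00000064267) occupies chromosome 5 from 122206804 to 122242297 on the plus strand. Cyba, Ncf1, Rac1 and Hvcn1 each overlap a gene on the opposite strand (Gm20388, Gtf2ird2, Daglb and Tctn1), and whether the counting used strand is not given in the sources used here, so their counts could include reads of that neighbour.

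Promoter windows of 300 bases, 250 before and 50 after the RefSeq start, were matched for 3 of the 7 genes on GRCm38.p6. They are shown as the windows at hand. Whether the motifs bear on differences between classes or between treatments was not tested. Capitals mark matches, on either strand, to GAGGAA, a purine-rich core that ETS factors such as PU.1 bind, and to GAAANNGAAA, a core that interferon regulatory factors bind. The windows are chrX:9469275-9469574 for Cybb, chr5:134229576-134229875 for Ncf1 and chr8:122432891-122433190 for Cyba, all read on the minus strand.
Cybb: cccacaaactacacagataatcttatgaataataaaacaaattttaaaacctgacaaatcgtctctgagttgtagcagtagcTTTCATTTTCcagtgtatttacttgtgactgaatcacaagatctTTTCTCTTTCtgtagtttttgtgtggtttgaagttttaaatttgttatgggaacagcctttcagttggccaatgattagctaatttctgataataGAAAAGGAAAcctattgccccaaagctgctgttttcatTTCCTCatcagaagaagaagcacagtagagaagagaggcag
Ncf1: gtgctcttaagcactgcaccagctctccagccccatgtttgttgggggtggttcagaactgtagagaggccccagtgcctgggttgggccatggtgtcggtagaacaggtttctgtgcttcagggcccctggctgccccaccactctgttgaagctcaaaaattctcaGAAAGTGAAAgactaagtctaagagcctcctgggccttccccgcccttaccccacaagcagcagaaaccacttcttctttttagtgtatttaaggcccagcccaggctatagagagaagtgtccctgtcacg
Cyba: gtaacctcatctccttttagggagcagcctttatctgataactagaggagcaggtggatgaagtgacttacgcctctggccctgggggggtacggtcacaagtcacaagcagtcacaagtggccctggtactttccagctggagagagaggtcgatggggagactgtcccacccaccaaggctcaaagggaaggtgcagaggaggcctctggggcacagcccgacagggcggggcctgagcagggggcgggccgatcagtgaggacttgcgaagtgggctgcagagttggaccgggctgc
The Cybb window held 3 matches to GAAANNGAAA, at bases 83 to 92, 127 to 136 and 222 to 231, and 1 match to GAGGAA at bases 260 to 265. The Ncf1 window held 1 match to GAAANNGAAA at bases 169 to 178, and the Cyba window held neither motif. No matches overlapped. Of all 32851 windows of this length, 28.3% held GAGGAA and 3.44% held GAAANNGAAA. The RefSeq start of Cybb lies inside the longer GENCODE span given above.

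Cybb, the catalytic electron-transferring subunit, was a transcript of the mononuclear phagocytes and of a subset of dendritic cells. In the monocyte class it stood at 1032, 934, 1101 and 1130 CPM in the phenformin, poly I:C, combination and control libraries, and in the macrophage class at 936, 1037, 1078 and 908 CPM. Dendritic cells held 461, 479, 760 and 460 CPM, B cells 279, 125, 188 and 141 CPM, neutrophils 180, 80.6, 131 and 106 CPM, and T cells 15.1, 14.9, 18.3 and 18.1 CPM. The mean over the 4 libraries was 1049 ± 87.0 CPM in monocytes and 16.6 ± 1.86 CPM in T cells (SD over 4 differently treated libraries), a ratio of 63.1. Monocytes and macrophages overlapped in their ranges, as did B cells and neutrophils, while each of the other neighbours in this order was apart in 4 of 4 libraries.

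The low Cybb level of neutrophils rested on 64, 28, 48 and 39 UMIs in the phenformin, poly I:C, combination and control libraries. It was 0.0777 to 0.192 of the macrophage level within the same library, and 5.40 to 11.9 times the T level. With every cell thinned to 1000 UMIs, 8.13, 8.11, 7.60 and 8.78% of neutrophils held a Cybb UMI, against 53.9, 59.03, 61.0 and 55.6% of macrophages and 1.33, 1.35, 1.70 and 2.24% of T cells, which should lack the gene. Thinning left out 4 to 14 neutrophils and 6 to 19 T cells per library. Unthinned, these shares were 10.0 to 16.1% of neutrophils, at a median of 1831.5 to 2103 UMIs, and 5.6 to 8.2% of T cells, at a median of 4742 to 6790.5 UMIs. The neutrophil share was thus above the T share in 4 of 4 libraries. Macrophage transcripts were present in the neutrophil class too: the 7 macrophage markers, from C1qa to Trem2, summed to 675, 587, 1214 and 453 CPM there, none at 0 in all libraries, against 10535 to 30199 CPM in macrophages. Per UMI of C1qa, C1qb and C1qc, neutrophils held 0.640, 0.368, 0.230 and 0.476 Cybb UMIs, macrophages 0.131, 0.0813, 0.0704 and 0.143, and T cells 0.190, 0.112, 0.103 and 0.212. It was 0.371, 0.189, 0.185 and 0.491 in monocytes, 0.857, 0.688, 0.518 and 0.792 in B cells and 5.84 to 6.43 in dendritic cells. The neutrophil figure was above those of macrophages and T cells in 4 of 4 libraries, below that of B cells in 4 of 4, and below that of monocytes in the control. The part of carried-over RNA in the neutrophil level was not tested.

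Cyba, the partner that stabilises the catalytic subunit and docks the organisers, followed Cybb in the phagocytes but was present in every class. Monocytes held 1882, 2460, 2481 and 1668 CPM and macrophages 1860, 2395, 2355 and 1668 CPM in the phenformin, poly I:C, combination and control libraries. Dendritic cells came next with 895, 1018, 960 and 800 CPM. Neutrophils held 616, 616, 822 and 440 CPM, T cells 546, 580, 609 and 492 CPM, and B cells 560, 356, 295 and 457 CPM, and these 3 classes overlapped in their ranges, as did dendritic cells and neutrophils. The ratio of the highest to the lowest class mean was 5.09, against 63.1 for Cybb. T cells, at the lowest Cybb level, thus had a Cyba level of 0.242 to 0.295 of that of macrophages in the same library.

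**Figure D1:**
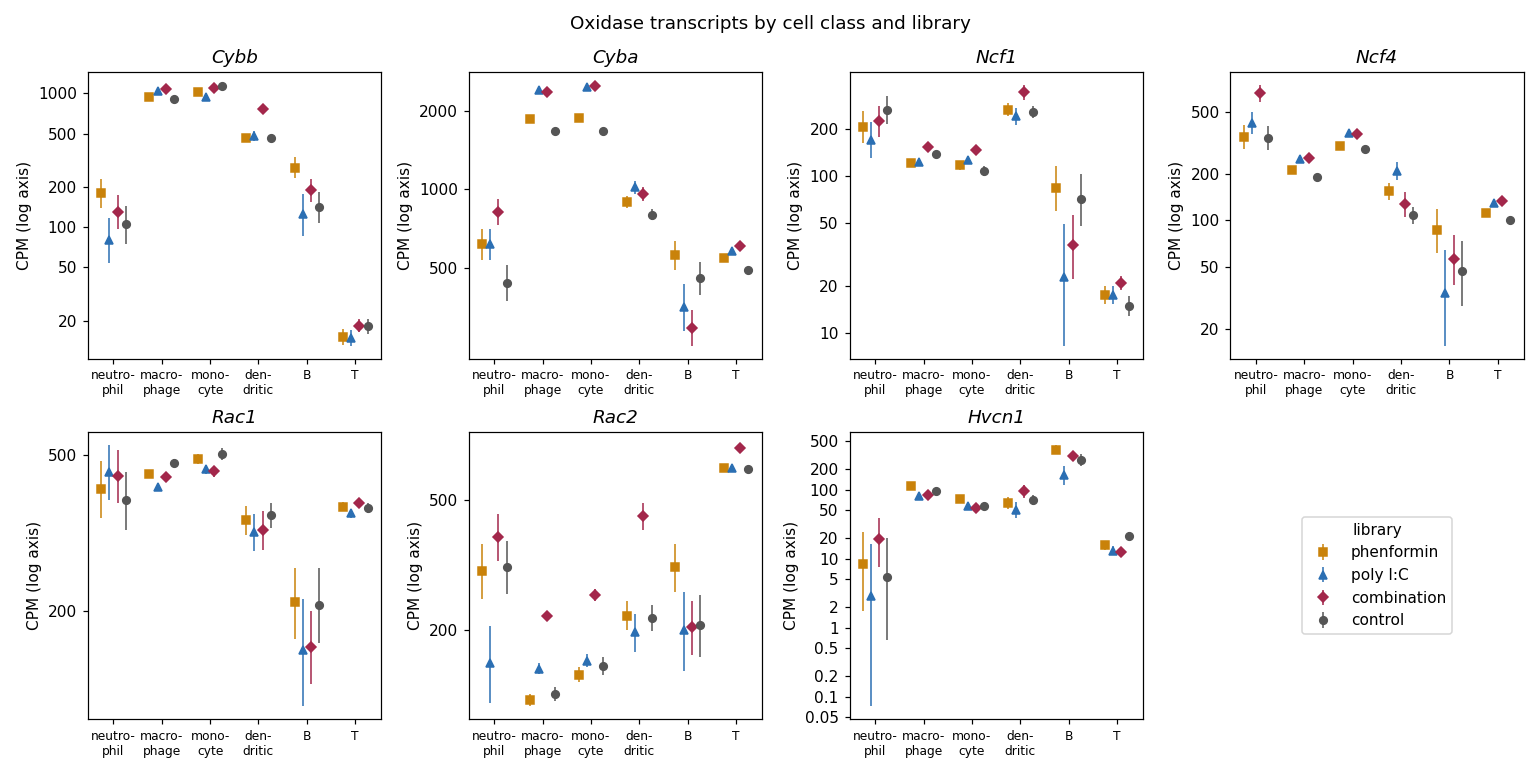
Level of each oxidase gene (CPM, log axis) in 6 leukocyte classes, with 1 point per library and bars for the exact Poisson 95% interval, which covers counting error only. Cybb ran from 14.9 to 18.3 CPM in T cells up to 934 to 1130 CPM in monocytes, whereas Rac2 was highest in T cells and Hvcn1 in B cells.

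Ncf1, the organiser that bridges the core and the other cytosolic subunits, was highest in dendritic cells and neutrophils. Dendritic cells held 264, 240, 340 and 255 CPM and neutrophils 205, 170, 223 and 263 CPM in the phenformin, poly I:C, combination and control libraries, and their ranges overlapped. Macrophages held 121, 123, 153 and 138 CPM, and monocytes 117, 127, 147 and 108 CPM. The neutrophil level was 1.38 to 1.90 times the macrophage level in the same library, the reverse of the order for Cybb. B cells held 22.7 to 84.1 CPM and T cells 14.99 to 20.8 CPM. After thinning, 14.6, 21.6, 15.2 and 25.7% of neutrophils held an Ncf1 UMI, against 1.9 to 2.5% of T cells. Dendritic cells stayed highest and T cells lowest under all 9 alternative settings.

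Ncf4, the organiser that binds phosphatidylinositol 3-phosphate on the phagosome, had its highest mean in neutrophils. They held 346, 426, 659 and 342 CPM in the phenformin, poly I:C, combination and control libraries, on 123 to 242 UMIs. Monocytes held 304, 368, 360 and 289 CPM, so that the neutrophil level was higher in 4 of 4 libraries, by 1.14 to 1.83 times, although the ranges overlapped. Macrophages held 212, 249, 252 and 192 CPM, dendritic cells 155, 210, 127 and 108 CPM, T cells 112, 129, 134 and 101 CPM and B cells 86.3, 34.1, 56.5 and 46.9 CPM. Neutrophils remained the highest class under all 9 alternatives. After thinning, 26.8, 48.6, 51.5 and 33.8% of neutrophils held an Ncf4 UMI, against 18.9, 20.3, 21.7 and 17.6% of macrophages.

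Rac1, the ubiquitous GTPase, was the flattest of the 7. Its class means ran from 475 ± 23.0 CPM in monocytes to 185 ± 27.9 CPM in B cells (SD over 4 libraries), a ratio of 2.57, and macrophages, monocytes and neutrophils overlapped. Rac2, which is restricted to blood cells and is the Rac protein of the neutrophil oxidase, was highest in T cells, at 628, 629, 726 and 624 CPM. Neutrophils held 304, 158, 387 and 312 CPM, dendritic cells 222, 197, 448 and 218 CPM, B cells 312, 201, 204 and 208 CPM, monocytes 146, 161, 257 and 156 CPM, and macrophages 122, 152, 221 and 127 CPM. T cells exceeded neutrophils by 1.88 to 3.97 times in 4 of 4 libraries. T cells stayed highest and macrophages lowest under all 9 alternatives. Within the T class, cells with a Cd8 UMI held 632 to 757 CPM of Rac2 and cells with a Cd4 UMI 638 to 762 CPM, a split made after the data were seen.

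Hvcn1, the voltage-gated proton channel that offsets the charge moved by the oxidase, was highest in B cells, at 381, 163, 304 and 269 CPM. This was 1.998 to 3.59 times the macrophage level of 112, 81.4, 84.8 and 94.4 CPM in the same library, and B cells stayed highest under all 9 alternatives. Dendritic cells held 64.1, 51.0, 95.1 and 71.1 CPM, monocytes 54.4 to 73.7 CPM and T cells 12.48 to 21.4 CPM. Neutrophils were at the counting limit with 3, 1, 7 and 2 UMIs, and 0.58 to 0.90% of them held a UMI after thinning, below the 1.37 to 2.72% of T cells, so this share is read as background.

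**Figure D2:**
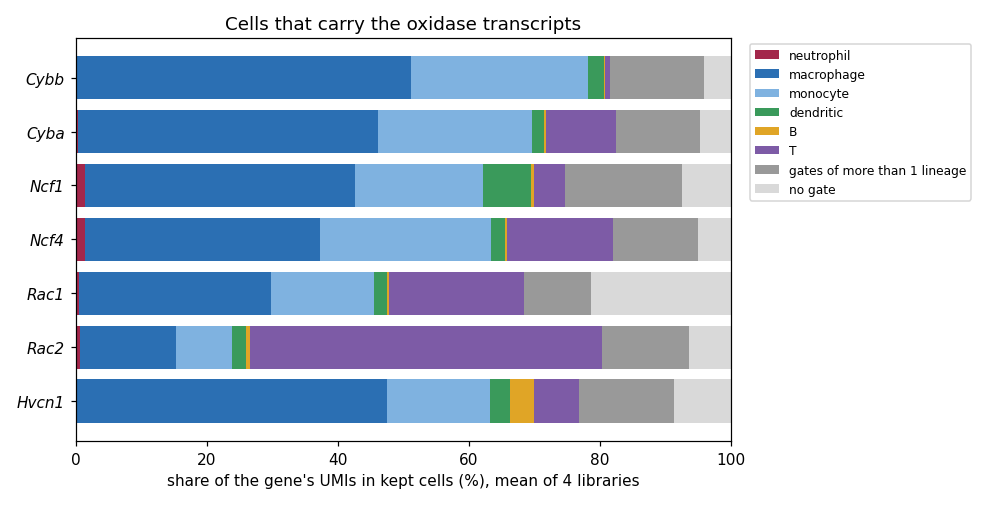
Share of each gene's UMIs in kept cells (%, mean of 4 libraries) that fell in each class, in cells set aside (labelled gates of more than 1 lineage) and in cells with no gate. Macrophages and monocytes held most Cybb UMIs, T cells most Rac2 UMIs, and neutrophils at most 1.49% of any gene.

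Counted over whole libraries, macrophages held the largest mean share of the UMIs of 6 members, from 29.2% for Rac1 to 51.1% for Cybb, and 14.7% of those of Rac2. On average 51.1% of Cybb UMIs fell in macrophages, 27.0% in monocytes, 2.39% in dendritic cells, 0.748% in T cells and 0.139% in neutrophils. The neutrophil share was highest for Ncf4 at 1.49% and Ncf1 at 1.45%. T cells held 53.7% of Rac2 UMIs, 16.2% of Ncf4 UMIs and 10.7% of Cyba UMIs. Cells that passed a gate but were set aside held 14.4% of Cybb UMIs and cells with no gate 4.02%. Such a share depends on how many cells of a class were captured and on their depth as well as on the level of the gene.

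Among the 6 classes, co-detection of the core and organiser genes in 1 cell was most frequent in monocytes and macrophages. After thinning, at least 2 of Cybb, Cyba, Ncf1 and Ncf4 were found in 63.0, 66.5, 71.1 and 61.6% of monocytes of the phenformin, poly I:C, combination and control libraries. The share was 57.7, 61.2, 65.4 and 55.2% in macrophages, 43.4, 34.6, 40.0 and 33.8% in dendritic cells, and 21.1, 45.9, 35.7 and 34.5% in neutrophils. T cells were at 5.7 to 6.7%.

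The dendritic class was a mixture for the oxidase genes. Plasmacytoid dendritic cells, which make type I interferon, carry Siglech. A Siglech UMI was held by 41.8, 42.3, 50 and 41.6% of dendritic-class cells in the phenformin, poly I:C, combination and control libraries. Of the 269, 203, 218 and 300 cells that passed the Flt3 gate there, the class kept 153, 104, 110 and 209. Those that also passed a gate other than the monocyte gate were set aside, and the part of this rule in the split was not tested. Cells with Siglech held 1391, 1686, 1485 and 1227 CPM of Cybb, against 58.4, 27.5, 77.9 and 52.6 CPM without it. The ratio was 19.1 to 61.2 within a library. With a Siglech UMI the dendritic level was above that of monocytes in each library. The split was chosen after the data were seen, and the values are a description.

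The same split ran through 3 other members. Rac2 stood at 656, 596, 848 and 559 CPM with Siglech, against 33.5, 47.6, 71.7 and 37.5 CPM without it. The level with Siglech was above that of T cells in the phenformin and combination libraries and below it in the poly I:C and control libraries. Ncf1 stood at 444, 475, 488 and 430 CPM with Siglech, against 186, 152, 201 and 161 CPM without it, and Hvcn1 was 1.84 to 3.81 times higher with it. Rac1 and Ncf4 had the opposite order: Ncf4 held 115, 124, 107 and 50.2 CPM with Siglech, against 172, 242, 146 and 138 CPM without it. Cyba differed by 0.764 to 1.03 times. After thinning, 70.3, 75.0, 80.0 and 77.6% of dendritic cells with Siglech held a Cybb UMI, against 6.8, 5.0, 5.5 and 7.6% of those without. At least 2 of Cybb, Cyba, Ncf1 and Ncf4 were found in 59.4, 47.7, 67.3 and 52.9% of those with Siglech. Without it the share was 31.8, 25, 12.7 and 20.2%. The share with Siglech was above that of macrophages in the phenformin and combination libraries, and below that of monocytes in each library.

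**Figure D3:**
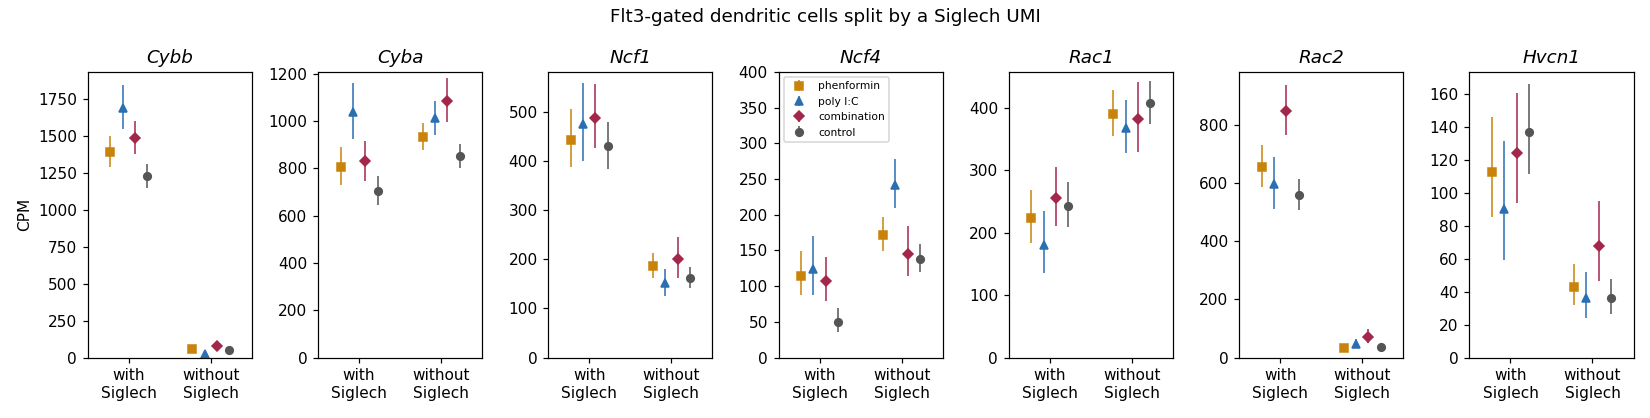
Levels of the 7 genes (CPM) in cells of the dendritic class with and without a Siglech UMI, with 1 point per library and exact Poisson 95% intervals for counting error. Cybb was at 1227 to 1686 CPM with Siglech, against 27.5 to 77.9 CPM without it, and Ncf4 was lower with Siglech in each library.

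The treatment comparisons asked whether phenformin, poly I:C or both changed the oxidase genes within a class. With 1 library per treatment no test was possible, and a gene counted as higher or lower in a class when the ratio was at least 1.5-fold with at least 50 CPM and 30 UMIs in the higher library. The comparisons with control share 1 control library. Of the 42 pairs of gene and class, 36 to 38 reached the level needed in each comparison, and the calls are given by class beside the share called over all genes.

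In macrophages the member past the threshold was Rac2. It stood at 122, 152 and 221 CPM in the phenformin, poly I:C and combination libraries and at 127 CPM in the control, so that the combination library was apart from the other 3. The ratio of combination to control was 1.74 (1.64 to 1.84), with 4.95% of 3134 genes called higher and 6.13% lower in that comparison. Over phenformin the ratio was 1.81 (1.72 to 1.91), where 3.97% of genes were called higher and 5.28% lower. Both calls were kept under all 9 alternatives, at 1.56 to 1.76 over control and 1.71 to 1.87 over phenformin. The combination over poly I:C gave 1.45 (1.38 to 1.53), short of the threshold, where 0.972% of genes were called higher and 1.71% lower. T markers, from a class rich in Rac2, summed to 28.9, 48.5, 55.8 and 43.7 CPM in the macrophage class, against 2198 to 2361 CPM in T cells, and T cells made up 24.98, 28.2, 33.6 and 24.5% of kept cells. Their part in the Rac2 ratio was not tested.

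No macrophage member was called for phenformin over control, where 0.697% of genes were called higher and 0.398% lower, nor for poly I:C over control, where the shares were 3.88 and 6.05%. Cyba came nearest to the threshold, at 1.44 (1.41 to 1.46) under poly I:C and 1.41 (1.39 to 1.44) under the combination, against 1.12 (1.10 to 1.13) under phenformin, and was past it with TMM scaling for poly I:C over control, at 1.52. Cyba was thus higher in both poly I:C-treated libraries than in both others. The sum of macrophage markers in the class ran the same way, at 13603, 30199 and 26897 CPM in the phenformin, poly I:C and combination libraries, against 10535 CPM in the control, and its part in the Cyba ratios was not tested. Ncf4 gave 1.30 (1.24 to 1.36) under poly I:C and 1.31 (1.25 to 1.38) under the combination. Cybb moved by 1.03 under phenformin, 1.14 under poly I:C and 1.19 under the combination, below the threshold in each.

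Monocytes of the same libraries had a similar pattern for Rac2 and Cyba. Of the 773, 918, 847 and 705 monocytes in the phenformin, poly I:C, combination and control libraries, 675, 834, 711 and 566 also passed the macrophage gate. Rac2 stood at 146, 161 and 257 CPM in the phenformin, poly I:C and combination libraries and at 156 CPM in the control. The combination was 1.65 (1.53 to 1.78) times the control, 1.59 (1.497 to 1.70) times poly I:C and 1.76 (1.64 to 1.89) times phenformin. It was the 1 member called in each of these comparisons, in which 4.9, 2.36 and 4.18% of genes were called higher and 6.45, 2.66 and 5.16% lower. The call over phenformin was kept under all 9 alternatives. That over control was lost with gates as written, at 1.39, and that over poly I:C fell short with gates as written and with TMM scaling. T markers summed to 32.2, 32.0, 50.8 and 34.0 CPM in the monocyte class of the phenformin, poly I:C, combination and control libraries. Their part in the Rac2 ratios was not tested. Cyba gave 1.47 (1.44 to 1.51) under poly I:C and 1.49 (1.45 to 1.52) under the combination, short of the threshold here and past it under 4 of 9 alternatives for each. The macrophage markers of the monocyte class, given above, were likewise highest in both poly I:C-treated libraries, and their part in the Cyba ratios was not tested. Nothing was called for phenformin over control (background 0.738% higher, 0.449% lower) or poly I:C over control (4.05% and 6.86%). Monocytes that passed the macrophage gate and monocytes that did not gave Rac2 ratios of combination to control of 1.64 (1.51 to 1.79) and 1.81 (1.49 to 2.19). The 2 parts differed over the single treatments, by the levels given under the other observations. Within the gate the combination was past 1.5-fold over both. Below the gate it was short of 1.5-fold over each, and each single treatment already stood above the control.

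**Figure D4:**
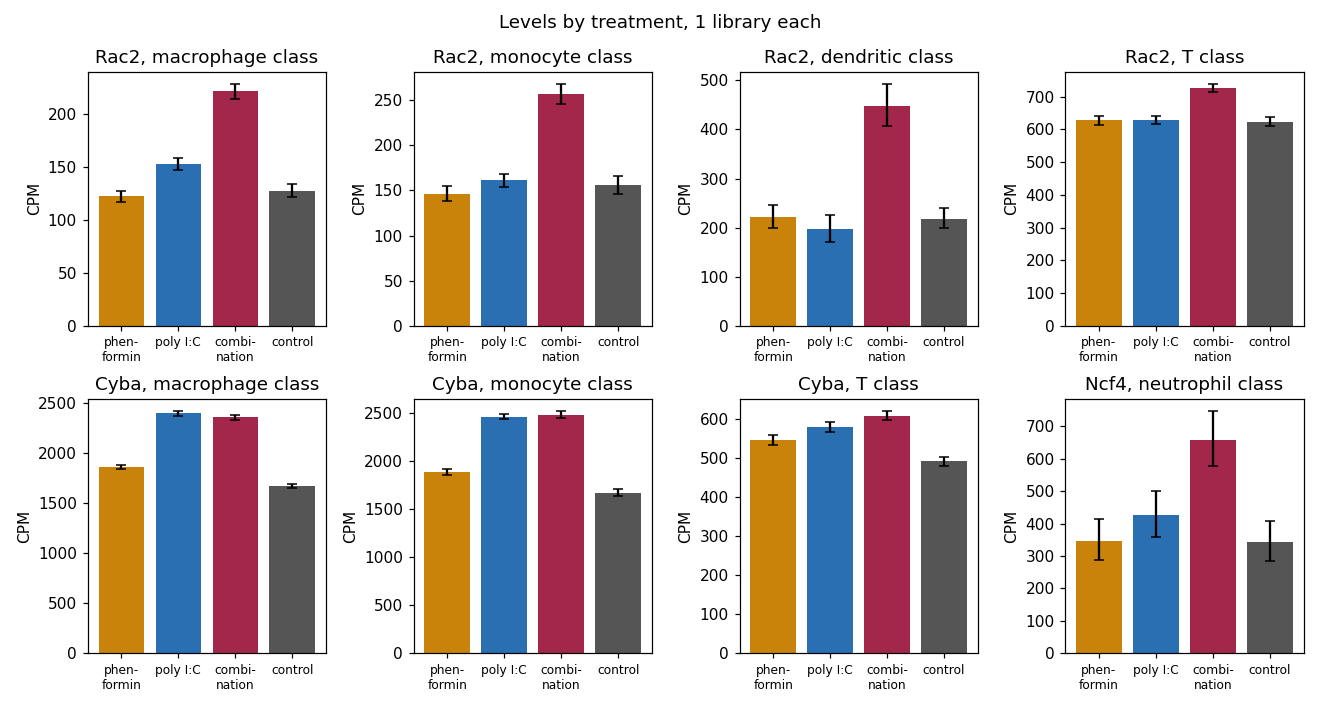
Levels (CPM) of Rac2 in 4 classes, Cyba in 3 classes and Ncf4 in neutrophils by treatment, as bars from 0 with exact Poisson 95% intervals for counting error. Rac2 was highest in the combination library in each class shown, and Cyba was higher in both poly I:C-treated libraries than in the phenformin and control libraries.

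In T cells Cyba, Ncf4, Rac1 and Rac2 were compared and none was called in the 5 comparisons, while Cybb, Ncf1 and Hvcn1 were below the level needed. With gates as written, Cyba (1.55) and Cybb (1.87) were called higher for poly I:C over control. Over control, 0.454, 2.08 and 1.69% of genes were called higher under phenformin, poly I:C and the combination, and 1.2, 7.4 and 4.59% lower. The combination had 0.654% of genes higher and 0.517% lower than poly I:C, and 2.04% higher and 1.6% lower than phenformin. Rac2 gave 1.16 (1.13 to 1.197) for the combination over control, 1.007 for phenformin and 1.008 for poly I:C. Cyba gave 1.11, 1.18 and 1.24, and Ncf4 1.11, 1.27 and 1.32, under phenformin, poly I:C and the combination.

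In dendritic cells Cybb, Rac2, Ncf4 and Hvcn1 had calls, and the share of UMIs from cells with Siglech also differed between the libraries. Cybb stood at 1.65 (1.498 to 1.82) and Rac2 at 2.05 (1.79 to 2.35) for the combination over control, as 2 members called higher and 0 lower, where 7.57% of genes were called higher and 9.38% lower. The Cybb call was kept under 6 of 9 alternatives, down to 1.27 as the mean over cells, and the Rac2 call under 8, lost at 1.38 with cells thinned. Cells with Siglech held 30.2, 27.2 and 48.4% of the class's UMIs in the phenformin, poly I:C and combination libraries, against 34.7% in the control. Among cells with Siglech the Cybb ratio of combination to control was 1.21 (1.09 to 1.34), and that of combination to poly I:C was 0.881 (0.784 to 0.990), below 1 where the whole class gave 1.58 (1.41 to 1.78). Rac2 kept a ratio of 1.52 (1.32 to 1.75) among cells with Siglech and 1.91 (1.21 to 2.996) among cells without it, for the combination over control.

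Over the single treatments, the combination had 3 members higher and 1 lower than poly I:C in dendritic cells, with 11% of genes called higher and 4.81% lower. These were Cybb, Rac2 at 2.28 and Hvcn1 at 1.86, and Ncf4 at 0.605 (0.481 to 0.758). Over phenformin, Cybb at 1.65 and Rac2 at 2.02 were called, with 10.3% of genes higher and 7.09% lower. The Rac2 calls over both single treatments were kept under all 9 alternatives. Over poly I:C, those of Cybb, Hvcn1 and Ncf4 were kept under 4, 7 and 6 of 9, and that of Cybb over phenformin under 7. None of these settings held the share of cells with Siglech fixed. It was 48.4% of the class's UMIs in the combination, 30.2% under phenformin and 27.2% under poly I:C. By the levels given above, Rac2 among cells with Siglech was short of 1.5-fold over either agent alone, and past it among cells without. Cybb over phenformin was short of it in both sets. The part of the share in these calls was not tested. Ncf4 stood at 155, 210 and 127 CPM in the phenformin, poly I:C and combination libraries and at 108 CPM in the control. It was called higher for poly I:C over control, at 1.94 (1.61 to 2.35), the 1 member called in that comparison, where 4.98% of genes were called higher and 13.4% lower, and the call was kept under 8 of 9 alternatives. Among cells with Siglech, Ncf4 was 2.29, 2.47 and 2.13 times the control under phenformin, poly I:C and the combination, and among cells without it 1.24, 1.75 and 1.05 times. No member was called for phenformin over control, with 1.52% of genes called higher and 5.01% lower.

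In neutrophils, Ncf4 was the member whose call for the combination over control held under all 9 alternatives. Its level was 346, 426 and 659 CPM in the phenformin, poly I:C and combination libraries and 342 CPM in the control, a ratio of 1.93 (1.55 to 2.41) that ran from 1.57 to 2.39 over the alternatives. Cyba was called as well, at 822 CPM against 440 CPM and 1.87 (1.54 to 2.28), and kept that call under 5 of 9 alternatives, falling to 1.37 without the 5% deepest cells. These 2 calls stood where 15.1% of 1771 genes were called higher and 30.2% lower. Without the cells with epithelial transcripts, the combination over control gave 1.58 (1.27 to 1.98) for Ncf4 and 1.52 (1.25 to 1.85) for Cyba. In that setting poly I:C over control gave 1.53 (1.195 to 1.958) for Ncf4 and 1.66 (1.35 to 2.05) for Cyba. The combination over poly I:C, 1.55 (1.26 to 1.91) for Ncf4 in the whole class, was then 1.03 (0.837 to 1.28).

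Rac2 differed in the poly I:C library. Neutrophils held 304, 158 and 387 CPM in the phenformin, poly I:C and combination libraries, against 312 CPM in the control, so that the poly I:C library was the lowest. The ratio of poly I:C to control was 0.507 (0.361 to 0.705), and without cells with epithelial transcripts it was 0.587 (0.415 to 0.822). The call was kept under 8 of 9 alternatives and lost with gates as written, at 0.774. Rac2 and Ncf1, at 0.645 (0.459 to 0.901), were the 2 members called lower for poly I:C over control, with 0 higher, where 29.1% of genes were called lower and 27.3% higher. The Ncf1 call was kept under 4 of 9 alternatives, and without cells with epithelial transcripts it stood at 0.776 (0.551 to 1.09).

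Phenformin over control had 1 neutrophil member called, Cybb at 1.70 (1.13 to 2.60) on 64 against 39 UMIs, where 8.31% of genes were called higher and 10.7% lower. The call was kept under 5 of 9 alternatives, and the ratio was 0.842 with cells thinned to 1000 UMIs, 0.844 with gate limits doubled and 1.57 (1.04 to 2.41) without cells with epithelial transcripts. The combination over poly I:C had 3 called higher (Cybb, Ncf4 and Rac2) and 0 lower, with 24.6% of genes higher and 30.9% lower. Of these, Rac2 at 2.44 (1.78 to 3.40) kept its call under 8 of 9 alternatives and Cybb and Ncf4 under 4 of 9 each. Without cells with epithelial transcripts Rac2 gave 1.70 (1.23 to 2.38) and Cybb 1.07 (0.656 to 1.77). The combination over phenformin had 1 called higher, Ncf4 at 1.90 (1.53 to 2.38), with 16.5% of genes higher and 27.5% lower, and 1.66 (1.33 to 2.08) without those cells. Cybb, at 0.632 (0.426 to 0.934), was then called lower. Rac1 was within 1.5-fold in all 5 comparisons. Hvcn1 had too few UMIs to be compared.

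**Figure D5:**
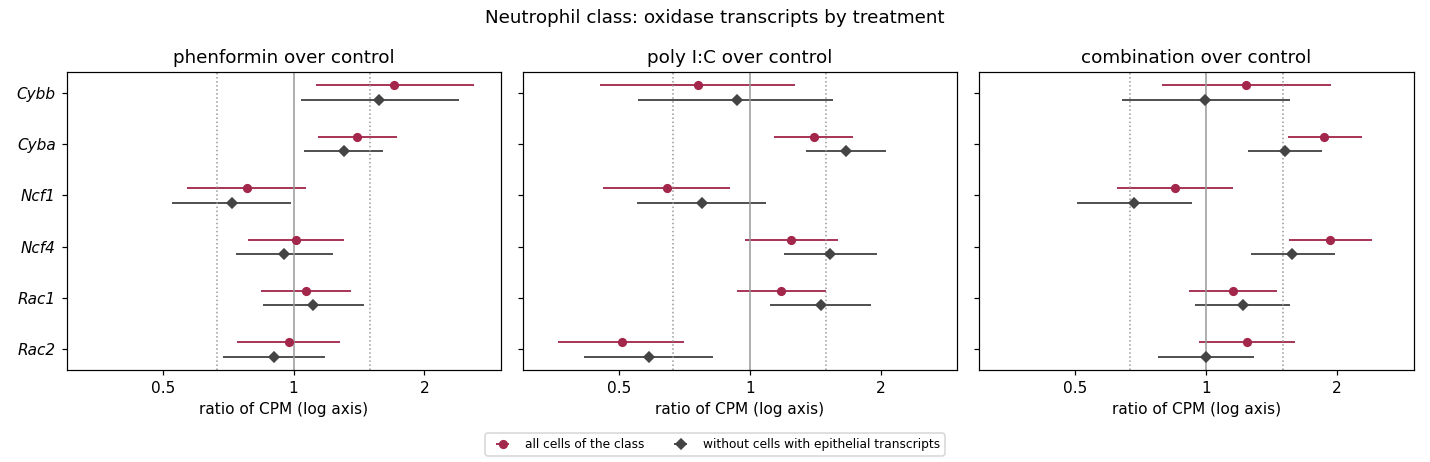
Ratio of CPM (log axis) over control for 6 genes in the neutrophil class, for phenformin, poly I:C and the combination, with all cells of the class (circles) and without cells with epithelial transcripts (diamonds). Bars are exact 95% intervals for counting error and dotted lines mark 1.5-fold: Ncf4 and Cyba lay above the line under the combination in both sets, and Rac2 lay below it under poly I:C in both.

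In the B class the calls were many and few of them stable. Phenformin over control had 3 higher (Cybb, Ncf4 and Rac2) and 0 lower, with 10.7% of genes called higher and 21% lower. Poly I:C over control had 0 higher and 1 lower, Hvcn1 at 0.604, with 7.39% of genes higher and 30.9% lower. The combination over control had 0 higher and 1 lower, Cyba at 0.646, with 14.9% higher and 25.7% lower. The combination over poly I:C had 3 higher and 0 lower (background 31.3 and 17%), and over phenformin 0 higher and 4 lower (12.2 and 13.9%). The Hvcn1 call for poly I:C over control was kept under 8 of 9 alternatives, and the other 11 B calls under 2 to 7.

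The layout also gave the combination against the product of the single treatments. For Rac2 this fold was 2.51 (1.67 to 3.77) in neutrophils, 2.24 (1.81 to 2.77) in dendritic cells, 1.70 (1.53 to 1.88) in monocytes, 1.52 (1.40 to 1.64) in macrophages and 1.15 (1.10 to 1.195) in T cells. It was above 1 in these 5 classes and was 0.677 (0.443 to 1.03) in B cells. For Cyba it was below 1 in the 6 classes, with an interval that left out 1 in 5 of them, from 0.678 (0.494 to 0.931) in B cells to 0.948 (0.907 to 0.991) in T cells, and that held 1 in neutrophils, at 0.953 (0.728 to 1.245). For Ncf4 it was 1.53 (1.11 to 2.11) in neutrophils and 0.422 (0.318 to 0.560) in dendritic cells. In neutrophils without cells with epithelial transcripts it was 1.89 (1.25 to 2.85) for Rac2, 0.700 (0.534 to 0.917) for Cyba and 1.09 (0.786 to 1.499) for Ncf4. In whole classes the fold was also 2.07 (1.36 to 3.13) for Hvcn1 and 1.58 (1.36 to 1.83) for Cybb in dendritic cells. Ncf1 gave 1.69 (1.07 to 2.65) in neutrophils, and Hvcn1 in monocytes went the other way, at 0.739 (0.619 to 0.883). Dendritic folds join cells with and without Siglech, whose shares differed between libraries, and monocyte folds join cells below and within the macrophage gate. The part of either mixture was not tested, and the folds were not set beside those of all genes. These intervals are normal approximations on the log scale that cover counting error, and the difference between libraries of 1 treatment is not known.

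Other genes of the pathway were counted from lists. Of 21 genes of assembly and signalling, 16 were compared in neutrophils for poly I:C over control, and 1 was higher and 8 lower, where 27.3% of all genes compared were higher and 29.1% lower. The median log2 ratio of the list was -0.57, beside -0.08 over all genes. Without cells with epithelial transcripts, 1 of 16 was higher and 1 lower, with 18.9% of all genes higher and 29% lower and a median of -0.39 beside -0.16. The gene still past the threshold on the lower side was Syk, a kinase downstream of Fc receptors and integrins, at 0.54 (0.43 to 0.68), against 0.44 (0.35 to 0.56) in the whole class. The complement receptor C5ar1 stood at 0.57 (0.44 to 0.75) in the whole class and 0.69 (0.52 to 0.91) without those cells, and the integrin chain Itgam at 0.61 (0.44 to 0.83) and 0.73 (0.53 to 0.999).

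For the combination over control, 4 of 17 genes of this list were higher and 0 lower in neutrophils, where 15.1% of all genes were higher and 30.2% lower. Without cells with epithelial transcripts 0 were higher and 2 lower, with 19.2% of all genes higher and 23% lower. The formyl peptide receptor Fpr1 gave 1.79 (1.33 to 2.41) in the whole class and 1.44 (1.07 to 1.94) without those cells, and the Fc receptor Fcgr3 1.52 (1.32 to 1.75) and 1.24 (1.08 to 1.44). The counts of this list in neutrophils thus differed with and without those cells in both comparisons.

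In macrophages the same list had 3 of 18 higher and 1 lower for the combination over control, where 4.95% of all genes were higher and 6.13% lower. Among those higher, Fpr2, another formyl peptide receptor, gave 2.52 (2.21 to 2.89) and the Fc receptor Fcgr4 1.72 (1.65 to 1.80). Prkcd, which encodes a protein kinase C that phosphorylates the organisers, gave 0.62 (0.59 to 0.64). The median of the list was 0.05 on the log2 scale beside -0.03 over all genes. In monocytes 1 of 19 was higher (Fpr2 at 1.64) and 2 were lower (Prkcd at 0.65 and Syk at 0.64), beside 4.9% and 6.45% of all genes. For poly I:C over control, macrophages had 1 of 17 higher, Fcgr4 at 1.54 (1.47 to 1.61), and 0 lower, beside 3.88% and 6.05%. Monocytes had 2 of 19 higher and 3 lower in that comparison, beside 4.05% and 6.86%. Fpr2 at 1.67 and Syk at 0.65 were among them.

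Of 16 genes that remove oxidants, 14 were compared in macrophages for the combination over control, where 4.95% of all genes were higher and 6.13% lower. Of these 14, 0 were higher and 1 was lower, the sulfiredoxin gene Srxn1 at 0.55 (0.50 to 0.60). In neutrophils 1 of 10 was higher and 1 lower in that comparison, beside 15.1% and 30.2% of all genes. The peroxiredoxin gene Prdx5 gave 2.09 (1.84 to 2.38), and 1.83 (1.60 to 2.09) without cells with epithelial transcripts. Prdx1 gave 0.58 (0.41 to 0.82), and 1.36 (0.87 to 2.14) without them. For poly I:C over control 4 of 11 were higher and 4 lower in neutrophils, beside 27.3% and 29.1% of all genes. Without cells with epithelial transcripts 1 of 9 was higher and 4 lower, beside 18.9% and 29% of all genes. Prdx5 was the gene higher in both sets, at 1.58 (1.37 to 1.81) in the whole class and 1.96 (1.70 to 2.27) without those cells, while Prdx1 gave 1.73 (1.34 to 2.25) and 0.92 (0.52 to 1.59). None of the 7 genes of other oxidases and their partners reached the level needed for comparison in any class. Lyz2, the lysozyme of myeloid granules, was at 4.49, 1.90 and 3.65 times the control in neutrophils under phenformin, poly I:C and the combination, and at 4.15, 2.24 and 2.94 times without those cells. It was the 1 gene compared there of 4 listed as downstream, where 8.31, 27.3 and 15.1% of all genes were higher. Under poly I:C it was also higher in macrophages (2.04) and T cells (1.77), and under the combination in T cells (1.85). Phenformin had it higher in B (2.89) and dendritic cells (1.78). In dendritic cells it was lower under poly I:C (0.62) and the combination (0.49).

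The genes whose level ran most like each member over the 24 sums of class and library were sought among 5399 others on the log2 scale. For Cybb these were Unc93b1, which carries Toll-like receptors to the endosome, at Pearson r = 0.99, and the cathepsin genes Ctsh at 0.97 and Ctsz at 0.96. For Ncf4 they were Rhog (0.93), Tnfrsf1a (0.92) and Plgrkt (0.92), and for Ncf1 Gpr137b (0.96), Ogfrl1 (0.95) and Marcks (0.94). Cyba ran with Sh3glb1 (0.96), Mfsd1 (0.95) and Tmem106a (0.95), and Rac1 with Sema4a (0.92), Arrb2 (0.92) and Fuca2 (0.91). For Hvcn1 they were Snx30 (0.93), Ppp1r21 (0.91) and Egln2 (0.90), and for Rac2 Nmrk1 (0.88), Stk24 (0.86) and Nr3c1 (0.86). The 24 points are 6 classes in 4 libraries and are not independent. Among the members themselves, Cybb had r = 0.76 with Cyba and -0.77 with Rac2, and Ncf4 had r = 0.85 with Rac1.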

How the data were processed

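The values are raw UMI counts of genes by barcodes, as deposited and without normalization. Cell Ranger 3.1.0 stands in the file headers, and the submitters' processing notes name mm10 and GRCm38. The sources used here do not give aligner settings, annotation release or strand use. Cells needed at least 200 genes and a mitochondrial share under 20%, no doublet caller was run, and the kept cells held 57332308 to 76070132 UMIs per library.

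The neutrophil gate needed at least 5 UMIs of S100a8 and S100a9, at least 1 of Csf3r and Cxcr2 and 0 of the Cd3 genes. The other gates needed at least 3 UMIs (macrophage), 2 (monocyte, B and T) or 1 (dendritic); no limit was given for T cells, and 2 was set here. Neutrophil, macrophage and B cells passed no other gate. T and dendritic cells could also pass the monocyte gate, and monocytes, which needed at least 1 macrophage-gate UMI, could pass the macrophage gate. The members, lists and gates were chosen with earlier results of these data known.

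For each class and library the UMIs of all its cells were added up and expressed as CPM of that total, with exact Poisson intervals; ratios have the exact interval conditional on the total, and shares Clopper-Pearson intervals at 95%. UMIs are counted once per molecule, and intervals leave out all variation between mice. Named were all 7 members, the 3 genes of most similar pattern for each (log2 of CPM plus 5, at least 50 CPM in 1 sum) and examples of listed pathway genes past 1.5-fold, of which 1 is not reported here. The 8 other settings were gates as written, stricter cell filters, the mean over cells, TMM scaling with edgeR 4.0.16 under R 4.3.3, thinning to 1000 UMIs, doubled gate limits, leaving out the 5% deepest cells and leaving out shared barcodes; leaving out cells with epithelial transcripts was added after the data were seen. Python 3.11.15, numpy 2.4.6, scipy 1.17.1 and pandas 2.3.3 were used.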

Additional observations from a re-analysis of the deposited data

Results flagged for a closer look

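Phenformin was compared in the absence of poly I:C (phenformin over control) and in its presence (combination over poly I:C), and for 5 pairs of gene and class the ratios lay on opposite sides of 1 with counting intervals that left out 1. With 1 library per treatment the difference between the ratios was not tested. Cyba in macrophages was at 0.983 with poly I:C and 1.12 without it. Ncf1 in macrophages was at 1.25 with poly I:C and 0.875 without it, and Rac1 in macrophages at 1.06 and 0.937. Cybb in monocytes was at 1.18 with poly I:C and 0.913 without it. Ncf4 in dendritic cells was at 0.605 with poly I:C and 1.43 without it, and among dendritic cells with Siglech these ratios were 0.863 and 2.29.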

How the results depend on the processing

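No paired analysis was possible because each treatment had 1 library and the labels give no replicate numbers. Leaving out the shared barcodes moved none of the 60 counts of members called higher or lower and none of the 210 ratios. Over the 9 alternatives 455 of the counts stayed within 1.5 times the value reported, and 85 moved. With 500 genes and 10% mitochondrial UMIs the neutrophil count higher for phenformin over control was 0. With TMM scaling the neutrophil counts higher were 4 for the combination over control, 5 over poly I:C and 2 over phenformin, and other counts moved to 0 or 1. With gate limits doubled they moved to 0, 1 or 2, and to 4 for dendritic members higher in the combination over phenformin. With gates as written, with the mean over cells and with thinning they moved to 0, 1 or 2. Without the 5% deepest cells and without cells with epithelial transcripts they moved to 1 or 2, among them poly I:C over control in neutrophils, at 1 higher and 1 lower in the first case and 2 higher and 1 lower in the second.

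Of the ratios 1536 stayed inside their counting interval, 104 of them on the other side of 1, 246 moved further on the same side of 1, 92 that were not called lay on the other side of 1, and 16 called ratios changed side. The cause was not tested. Of the 92, 8 passed the threshold on the other side, among them Cybb in neutrophils for the combination over control (0.498 with gate limits doubled, 1.23 as reported) and Cyba in B cells for poly I:C over control (1.61 with gates as written, 0.778 as reported). In neutrophils the 16 were Cybb for phenformin over control (0.842 thinned, 0.844 with gate limits doubled) and for the combination over poly I:C (0.863 with gates as written, 0.815 doubled), and in dendritic cells Cybb for the combination over poly I:C (0.891 thinned). In B cells they were Rac2 (0.924 with gates as written) and Ncf4 (0.789 thinned) for phenformin over control, Cyba for the combination over control (1.66 with gates as written, 1.07 doubled), and Cybb (0.962 as the mean over cells) and Ncf4 (0.807 thinned) for the combination over poly I:C. For the combination over phenformin they were, with gates as written, Cyba (1.61), Ncf1 (1.32), Ncf4 (1.32) and Rac2 (1.07), and Ncf4 thinned (1.64). The order of classes by Cybb was kept in every alternative but gates as written, where macrophages led and neutrophils stood above B cells. Depth limits neutrophils and B cells most, with 264285 to 548457 UMIs per library.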

Other observations

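Cells that passed no gate carried oxidase transcripts at low levels. They held 93.2, 37.5, 66.5 and 105 CPM of Cybb and 244, 139, 217 and 218 CPM of Cyba in the phenformin, poly I:C, combination and control libraries. Their Rac1 level, 318, 304, 325 and 331 CPM, was close to that of dendritic cells, and their Rac2 level, 70.1, 37.4, 86.2 and 75.3 CPM, was below that of every class in each library. Epithelial markers summed to 4141, 5947, 5815 and 4522 CPM in these cells, and the labels give over 90% of loaded cells as CD45-positive and EpCam-negative.

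Monocytes that did not reach the macrophage gate held more Rac2 and Ncf1 than monocytes within it. Rac2 stood at 280, 295, 392 and 217 CPM below the gate and at 137, 155, 242 and 147 CPM within it, and Ncf1 at 183, 206, 187 and 150 CPM below it and at 113, 123, 142 and 102 CPM within it. Cyba ran the other way, at 1294, 1711, 1691 and 1199 CPM below the gate and at 1922, 2494, 2569 and 1733 CPM within it. Cybb differed less but was higher below the gate in each library, at 1130 to 1199 CPM, against 924 to 1120 CPM within it. The split was chosen after the data were seen.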
